A study of Rattus norvegicus with 17 samples.

Results

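The inner root sheath is the sleeve of keratinized cells that moulds the growing hair and escorts it to the skin surface. A set of 8 genes that mark it were followed here by name: the type I keratins Krt25, Krt26, Krt27 and Krt28, the type II keratins Krt71, Krt72 and Krt73, and Tchh, which encodes trichohyalin. All 8 were among the 17251 genes quantified in the rat meibomian gland, and all 8 passed the filter on low values that 13105 genes passed. All 8 were lower after UVB irradiation of the eyelids in wild-type rats and in P1.hMR rats, at 35.0% to 58.2% of their control means, and no member differed by the test between the genotypes.

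Keratins assemble as heterodimers of a type I and a type II chain, and the chains of the inner root sheath are distinct from those of the hair shaft and of the epidermis. In the human follicle, KRT25, KRT27, KRT28 and KRT71 are made in all layers of the sheath, whereas KRT26, KRT72 and KRT73 are restricted to its cuticle. Trichohyalin fills the sheath cells, is deiminated by peptidylarginine deiminases and is cross-linked to the keratins by transglutaminases. The meibomian gland itself is a sebaceous gland of the eyelid margin and, unlike the sebaceous glands of hair follicles, has no hair of its own, although lashes and eyelid hairs grow beside it.

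All 17 animals were female Sprague-Dawley rats aged 10 to 12 weeks, either wild type (WT) or carrying P1.hMR, in which the human mineralocorticoid receptor NR3C2 is driven by its own proximal P1 promoter in tissues that express the receptor. Meibomian glands came from 4 WT and 5 P1.hMR rats without UVB, and from 3 WT and 5 P1.hMR rats given eyelid UVB on 5 days. According to the study's methods the irradiated upper lids were shaved first. Shaving of the control lids is not described, so an effect of shaving and an effect of UVB cannot be told apart in any comparison with controls. The methods count the irradiated animals in eyes, and the study's reporting summary says that where both eyes of an animal were taken they were combined into 1 sample.

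Values are TPM (transcript counts scaled to a common total), a level per unit of transcript length that can be compared between genes. Read depth per library is not in the table. NR3C2 was listed at 0 in all 7 WT rats and at 5.31 to 9.31 TPM in the 10 P1.hMR rats, as the labels state. Meibocyte markers were abundant: the 12 summed to 39296 to 54324 TPM per rat, led by Scd at 23994 to 31198 TPM. Whether they came from the meibomian gland alone was not tested. Markers of hair follicle, epidermis and muscle were present too: the 13 hair shaft keratins in the table summed to 195 to 868 TPM, 8 epidermal markers to 2521 to 4361 TPM and 7 skeletal muscle markers to 1576 to 3674 TPM. In bulk tissue, fewer sheath cells and less RNA per sheath cell cannot be told apart. UVB WT rat 3 stood apart. It had the highest value of its group for all 8 members, and also the highest epidermal sum and the lowest muscle sum of the 17 rats. The WT changes of the members, and the WT counts of the other lists where they differ, are therefore also given without it.

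The 7 keratin genes lie in the rat keratin clusters, Krt25 to Krt28 on chromosome 10 and Krt71 to Krt73 on chromosome 7, all on the minus strand. Among the genes quantified here no other gene lay within either run, but Krt74 was not among those genes. Tchh lies on chromosome 2. The bases just upstream of 6 of them are shown because the members moved together and these stretches hold most of the matches described next. They are the RefSeq promoters of the GRCr8 build (the expression table was made on rn7), 5′ to 3′ on the gene's strand, ending at the base before the annotated start. Capitals mark TATAAA and, in the type I genes, CCANTTA.
Krt25: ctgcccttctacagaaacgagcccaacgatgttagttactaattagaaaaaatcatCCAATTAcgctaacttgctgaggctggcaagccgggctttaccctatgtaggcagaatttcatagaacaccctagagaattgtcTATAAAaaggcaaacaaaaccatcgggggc
Krt26: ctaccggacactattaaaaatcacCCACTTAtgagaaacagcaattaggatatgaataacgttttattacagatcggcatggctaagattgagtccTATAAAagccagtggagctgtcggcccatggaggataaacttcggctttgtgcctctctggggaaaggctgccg
Krt27: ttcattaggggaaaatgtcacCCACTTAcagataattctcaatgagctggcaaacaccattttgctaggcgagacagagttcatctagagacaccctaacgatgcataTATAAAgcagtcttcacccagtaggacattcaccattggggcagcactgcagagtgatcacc
Krt28: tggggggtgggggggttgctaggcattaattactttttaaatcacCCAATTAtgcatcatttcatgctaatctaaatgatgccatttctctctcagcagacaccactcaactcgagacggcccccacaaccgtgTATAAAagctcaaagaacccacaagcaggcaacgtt
For the type II genes Krt71 and Krt73, capitals mark TATAAA and AGATAA, the core bound by GATA factors.
Krt71: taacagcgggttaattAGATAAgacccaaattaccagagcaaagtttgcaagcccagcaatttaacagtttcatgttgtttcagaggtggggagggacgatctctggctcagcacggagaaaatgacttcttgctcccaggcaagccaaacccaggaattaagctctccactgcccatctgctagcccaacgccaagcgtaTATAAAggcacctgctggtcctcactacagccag
Krt73: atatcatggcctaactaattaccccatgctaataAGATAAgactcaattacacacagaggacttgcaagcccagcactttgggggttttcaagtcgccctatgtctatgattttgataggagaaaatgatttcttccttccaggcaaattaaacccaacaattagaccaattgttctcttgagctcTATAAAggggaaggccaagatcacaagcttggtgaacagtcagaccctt

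The pieces span chr10:84771198-84771367 for Krt25, chr10:84787002-84787171 for Krt26, chr10:84800132-84800301 for Krt27, chr10:84824858-84825027 for Krt28, chr7:134761034-134761268 for Krt71 and chr7:134815029-134815263 for Krt73. All 8 members had a RefSeq promoter, and 250 bases upstream of the start were searched on both strands. TATAAA occurred in 8 of the 8 members and in 13.1% of 27457 promoters. It began 30 bases upstream of the start in Krt25 and Tchh, 34 in Krt71, 36 in Krt28, 49 in Krt73 and 62 in Krt27. In Krt26 it began 74 and 202 bases upstream, and in Krt72 it was found only on the opposite strand, 201 bases upstream. AGATAA occurred in 5 of 8 members (Krt25, Krt27, Krt71, Krt73 and Tchh) and in 10.0% of all promoters. TAATT, the core bound by many homeodomain proteins, occurred in 7 of 8 members, all but Tchh, and in 26.1% of all promoters. CCANTTA, chosen after the sequences were seen, occurred in all 4 type I members and in Tchh, against 8.3% of all promoters. Its CCAATTA form in Krt25 and Krt28 overlaps a TAATT match on the opposite strand. AGAACA, a half-site of steroid receptors such as the mineralocorticoid receptor, occurred in Krt25 and Krt73 and in 17.1% of all promoters, and CTTTGA, the core bound by LEF and TCF factors, occurred in Krt28 alone and in 13.8%. These matches are a description of letters and not of bound sites.

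The members differed widely in level, and their order was the same in every rat. Over the 17 rats, Krt71 averaged 245 TPM and Krt25, its most abundant type I counterpart, 199 TPM. Krt27 followed at 107 TPM, Tchh at 76.6, Krt73 at 39.6, Krt28 at 20.9, Krt72 at 11.4 and Krt26 at 7.02 TPM. Each gene exceeded the next in this order in 17 of 17 rats, so no neighbours in the order overlapped within a rat. The closest neighbours by mean ratio were Krt71 and Krt25, with a Krt71 to Krt25 ratio of 1.16 to 1.36 per rat. Krt71 ranked 535th and Krt26 9132nd by mean level among all genes of the table.

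UVB against control in WT rats compared the dissected tissue of irradiated lids with that of control lids, without the transgene. All 8 members were called lower (limma on log2(TPM + 1), adjusted p under 0.05 with a log2 fold change of 0.5 or more in size), against 3.98% of all genes tested. Their log2 fold changes ran from -0.93 for Krt71 to -1.48 for Krt72, with a median of -1.18, and the median of all genes was 0.005. Every UVB rat lay below every control rat for 4 of 8 members (Krt26, Krt28, Krt72 and Tchh), against 12.6% of all genes. The same comparison in P1.hMR rats called all 8 lower again, against 5.71% of all genes. There the log2 fold changes ran from -0.78 for Krt73 to -1.21 for Krt72, with a median of -0.98 against -0.016 for all genes. For 6 of 8 members, all but Krt73 and Tchh, every UVB rat lay below every control rat, against 14.0% of all genes.

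**Figure D1:**
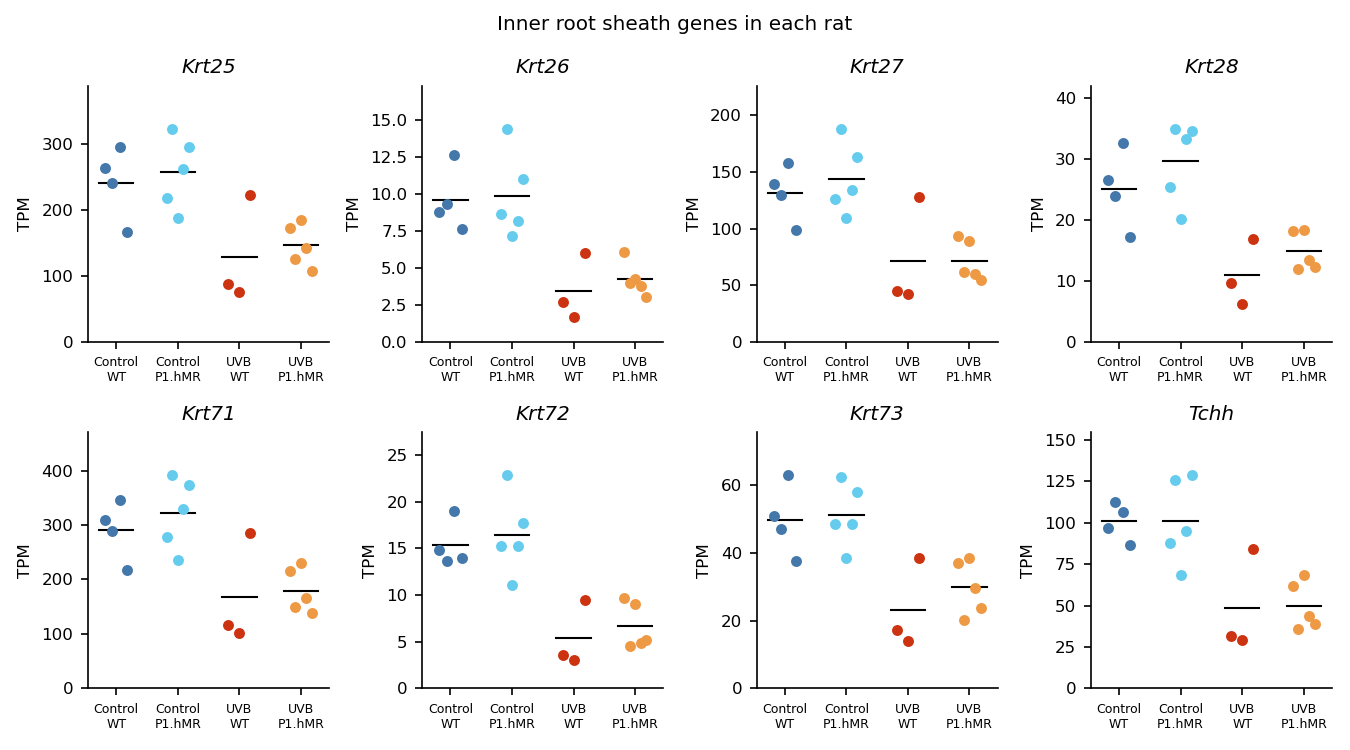
TPM (vertical axis, from 0) of the 8 inner root sheath genes in each of the 17 rats, with a point per rat and a bar at the group mean, for the 9 controls on the left and the 8 UVB rats on the right of each panel. In UVB WT, rats 1 and 2 lie below all controls for every gene, while rat 3 lies above both, within or below the control range.

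Krt71, the main type II keratin of the sheath and a gene mutated in curly-coated rodents, was at 310, 290, 347 and 217 TPM in WT controls 1 to 4. In UVB WT rats 1 to 3 it was at 116, 102 and 285 TPM. Thus rats 1 and 2 were well below the lowest control and rat 3 was within the control range. The group means were 291 ± 54.5 TPM (SD, n = 4) without and 168 ± 102 TPM (SD, n = 3) with UVB, or 109 TPM over UVB rats 1 and 2, and the fit gave -0.93 on the log2 scale (SE 0.29, limma adjusted p = 0.031). In P1.hMR controls 1 to 5 it was at 277, 392, 236, 329 and 373 TPM, and in UVB P1.hMR rats 1 to 5 at 215, 149, 230, 166 and 138 TPM. These groups did not overlap, though control rat 3 and UVB rat 3 were close. The log2 fold change was -0.84 (SE 0.24, limma adjusted p = 0.0104).

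Krt25, the leading type I chain, was at 264, 241, 295 and 167 TPM in WT controls 1 to 4 and at 87.8, 75.4 and 223 TPM in UVB WT rats 1 to 3. Again rat 3 alone fell within the control range. P1.hMR controls 1 to 5 had 219, 324, 188, 263 and 296 TPM, and UVB P1.hMR rats 1 to 5 had 173, 126, 186, 143 and 108 TPM, without overlap. Log2 fold changes were -1.05 (SE 0.31, limma adjusted p = 0.0224) in WT and -0.81 (SE 0.25, limma adjusted p = 0.0188) in P1.hMR. Krt27, the next type I chain, went from a mean of 131 ± 24.8 to 71.8 ± 49.0 TPM in WT (43.5 TPM over UVB rats 1 and 2) and from 144 ± 31.4 to 71.8 ± 18.1 TPM in P1.hMR (SD), again with overlap in WT and without it in P1.hMR. Krt28 went from 25.1 ± 6.39 to 10.9 ± 5.45 TPM in WT (7.96 TPM over UVB rats 1 and 2) and from 29.7 ± 6.61 to 14.9 ± 3.21 TPM in P1.hMR, with no overlap in either genotype.

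Krt72 and Krt26, both keratins of the sheath cuticle, were the least abundant members and had the largest log2 fold changes of the 8 in both genotypes. Krt72 was at 14.8, 13.6, 19.1 and 14.0 TPM in WT controls 1 to 4 and at 3.62, 3.05 and 9.45 TPM in UVB WT rats 1 to 3. It was at 15.3, 22.9, 11.1, 15.3 and 17.7 TPM in P1.hMR controls 1 to 5 and at 9.73, 4.55, 9.01, 4.83 and 5.19 TPM in the UVB P1.hMR rats. Every irradiated rat, rat 3 included, was below every control of its genotype. The fitted changes were -1.48 (SE 0.31, limma adjusted p = 0.00319) in WT and -1.21 (SE 0.25, limma adjusted p = 0.00134) in P1.hMR. Krt26 was at 8.80, 9.33, 12.7 and 7.67 TPM in WT controls and at 2.68, 1.70 and 6.03 TPM in UVB WT rats. It was at 8.63, 14.4, 7.16, 8.21 and 11.0 TPM in P1.hMR controls and at 6.09, 3.99, 4.22, 3.81 and 3.00 TPM after UVB. This gene too separated irradiated from control rats completely within each genotype, with log2 fold changes of -1.35 (adjusted p = 0.00333) and -1.05 (adjusted p = 0.00197). The third cuticle keratin, Krt73, changed by -1.18 (adjusted p = 0.00844) among WT rats and by -0.78 (adjusted p = 0.0153) among P1.hMR rats, and its groups overlapped in both genotypes.

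Tchh, the matrix protein of the sheath, was at 97.1, 113, 107 and 86.6 TPM in WT controls 1 to 4 and at 31.5, 29.2 and 84.4 TPM in UVB WT rats 1 to 3. Rat 3 lay just under the lowest control. In P1.hMR controls it was at 87.5, 126, 68.2, 94.9 and 129 TPM, and after UVB at 61.6, 36.0, 68.2, 43.6 and 39.1 TPM. Control rat 3 and UVB rat 3 of this genotype had nearly equal values, at 68.15 and 68.24 TPM. The log2 fold changes were -1.21 (SE 0.31, limma adjusted p = 0.0118) in WT and -1.01 (SE 0.26, limma adjusted p = 0.00534) in P1.hMR.

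The WT calls depended on which rats were included. Without UVB WT rat 3 all 8 members were called, against 3.95% of all genes called lower, with a median log2 fold change of -1.58. The WT log2 fold changes were then -1.38 for Krt71, -1.53 for Krt25, -1.55 for Krt27, -1.53 for Krt28, -1.73 for Krt26, -1.91 for Krt72, -1.60 for Krt73 and -1.69 for Tchh. Without UVB WT rat 2 only 3 members were called (2.62% of all genes), without UVB WT rat 1 only 4 (4.51%), and without Control WT rat 3 only 5 (3.31%), all 8 keeping a lower UVB mean. In P1.hMR 7 or 8 members were called whichever rat was left out, against 5.14% to 6.04% of all genes.

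**Figure D2:**
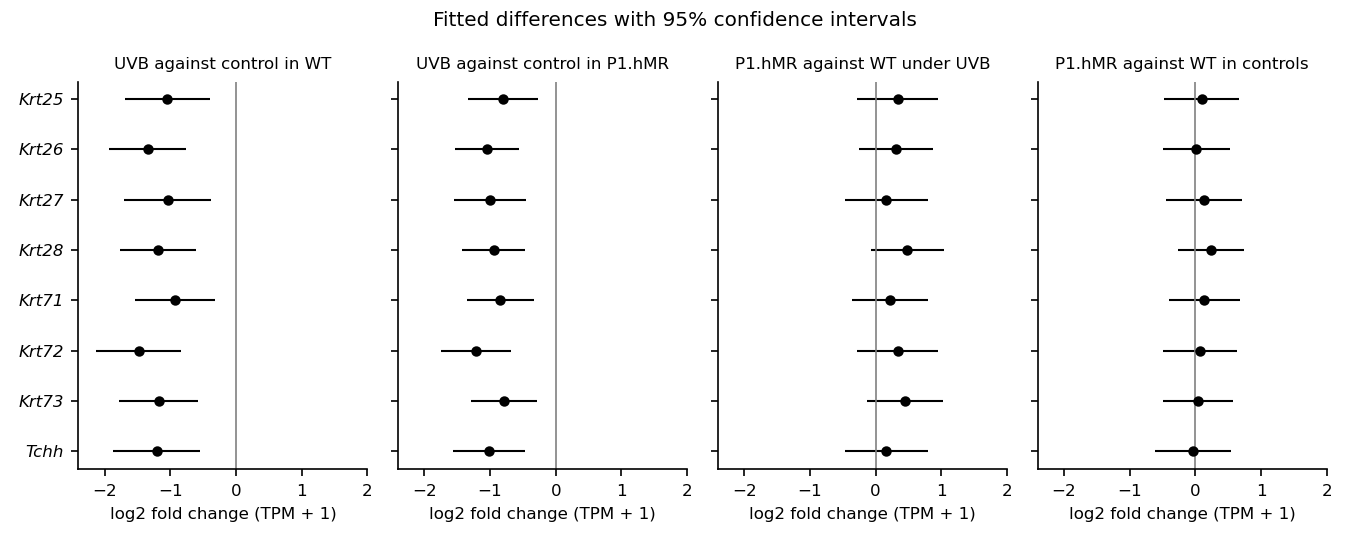
Log2 fold change on the log2(TPM + 1) scale (horizontal axis) of each of the 8 genes in 4 comparisons, with points for the limma estimate and lines for its 95% confidence interval. All 16 intervals of the UVB comparisons lie below 0 and all 16 of the genotype comparisons cross 0.

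P1.hMR against WT asked whether the receptor transgene altered the members. Under UVB, limma called 0 of the 8, with 0 at an unadjusted p under 0.05, against 0.0229% of all genes called and 1348 genes at an unadjusted p under 0.05. The estimates for the 8 genes ran from 0.16 for Krt27 to 0.49 for Krt28, and the interval for Krt28 ran from -0.07 to 1.04 (adjusted p = 0.542). The study names Krt28 among the differentiation genes of its enrichment analysis of this comparison. That analysis used DESeq2 and gene sets, a different method from the fit here. Without UVB WT rat 3 the median of the 8 went from 0.33 to 0.73, still with 0 called and a lowest adjusted p of 0.101. The genes called over the whole table went from 3 to 51 of 13075 (0.39%) in that fit, none of them a member. Without UVB WT rat 2 the estimates for Krt27, Krt71 and Tchh turned negative. In controls 0 of 8 were called and 0 were at an unadjusted p under 0.05, against 0.00763% of all genes called, and the estimates ran from -0.03 for Tchh to 0.24 for Krt28. The interaction, which tests whether the UVB difference itself differs between the genotypes, called 0 of 8 (0 at an unadjusted p under 0.05) and 0% of all genes, with 907 genes at an unadjusted p under 0.05. In the fit without UVB WT rat 3 it called 8 genes (0.0612%), again with 0 of the 8 members. The intervals of the interaction with every rat were wide, from -0.82 to 0.89 for Krt27 and from -0.39 to 1.18 for Krt73, and these numbers of rats could not resolve differences of that size.

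The proportions of the members within a rat moved far less than their levels. The summed type I keratins (Krt25 to Krt28) ranged 4.48-fold over the 17 rats, from 125 to 562 TPM, and the summed type II keratins (Krt71 to Krt73) 4.00-fold, from 119 to 477 TPM. Their ratio stayed between 1.05 and 1.18, with a mean of 1.14 ± 0.032 (SD, n = 9) in controls and 1.09 ± 0.040 (SD, n = 8) after UVB. The ratio thus ranged 1.12-fold in rats with very different amounts of both types, and the control and UVB ranges overlapped. Trichohyalin transcripts were 0.112 to 0.155 times the summed keratins in controls and 0.0953 to 0.120 times after UVB.

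Of the 7 keratins, only Krt72 had shares that separated UVB rats from controls over both genotypes together. It made up 1.81% to 2.498% of the summed TPM of the 7 keratins in the 9 controls and 1.15% to 1.76% in the 8 UVB rats, so that every UVB rat, UVB WT rat 3 included at 1.34%, lay below every control. Krt26 went the same way with overlap over both genotypes, from 0.988% to 1.39% in controls to 0.695% to 1.10% after UVB. Within WT its shares did not overlap, at 0.695% to 0.949% after UVB and 1.08% to 1.37% in controls. Krt71 took a larger share in UVB WT rats (40.3% to 41.9%) than in WT controls (37.4% to 38.8%), and in P1.hMR its shares overlapped, at 38.9% to 40.0% after UVB and 37.7% to 39.6% in controls. Krt73, the third cuticle chain, had 5.35% to 7.03% after UVB against 5.83% to 6.80% in controls over both genotypes. Within WT its shares were lower after UVB without overlap, at 5.44% to 6.11% against 6.24% to 6.80%. In P1.hMR they overlapped, at 5.35% to 7.03% after UVB and 5.83% to 6.75% in controls. These shares are given as a description without a test.

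**Figure D3:**
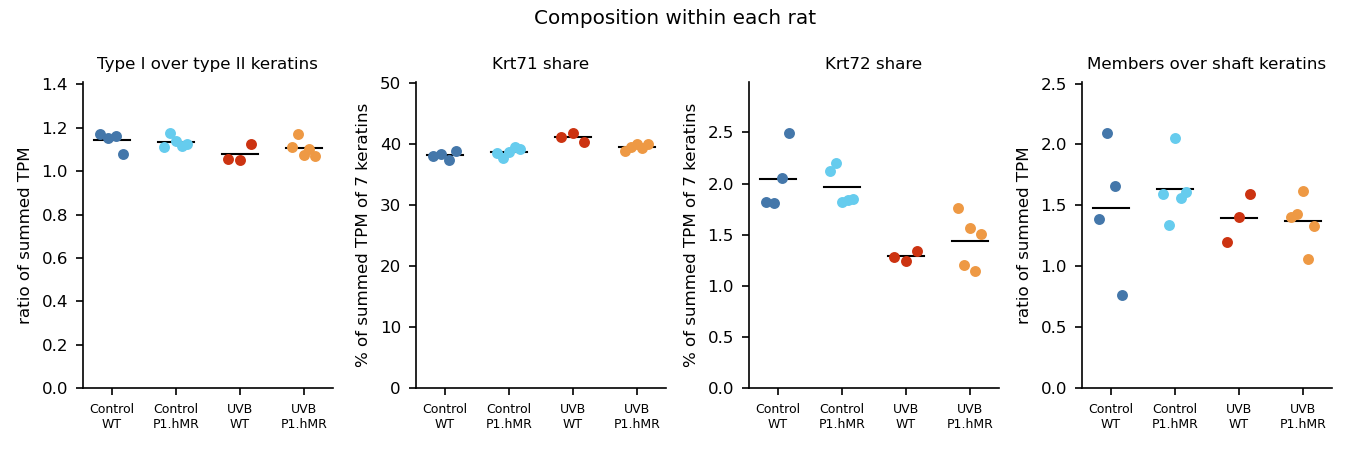
Per rat, from left to right: the ratio of summed type I to summed type II keratin TPM, the share of Krt71 and of Krt72 in the summed TPM of the 7 keratins (%), and the ratio of the 8 members to the 13 hair shaft keratins, by group with a bar at the mean. The Krt72 share of every UVB rat (1.15% to 1.76%) lies below that of every control (1.81% to 2.498%), while the type I to type II ratio stays between 1.05 and 1.18.

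Rats that were high for one member were high for the others. After each group's mean was subtracted, the 28 pairs of members had Pearson's r of 0.852 to 0.995 (median 0.934) over 17 rats on the log2(TPM + 1) scale. These points share libraries and tissue samples, and the values are a description. They include UVB WT rat 3, which was highest of its group for 8 of 8 members, and r was not computed without that rat. Control WT rat 3 was highest of its group for 7 of 8 members, Control P1.hMR rat 2 for 7 of 8, and Control P1.hMR rat 3 lowest for 8 of 8.

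Of the genes outside the 8, those that tracked the members most closely over the rats in the same way were Prr9 (r = 0.961), Padi3 (0.948), Dlx3 (0.920), Msx2 (0.886), Krt82 (0.870) and Crtac1 (0.863), out of 12670 genes with a mean of at least 1 TPM. Padi3 is a peptidylarginine deiminase that modifies trichohyalin, Dlx3 and Msx2 are homeodomain factors of the hair matrix and its daughter layers, and Krt82 is a hair cuticle keratin. All 6 were called lower after UVB in both genotypes. Prr9 was at 54.5, 54.7, 75.5 and 51.4 TPM in WT controls and at 16.4, 12.8 and 48.8 TPM in UVB WT rats 1 to 3. It thus had the same high rat 3 as the members, and the ranking by r was not made without that rat. Without that rat the WT log2 fold changes of the 6 genes ran from -1.08 for Dlx3 to -1.94 for Prr9, all called. Dlx3 was at 20.7, 20.6, 27.3 and 20.8 TPM in WT controls and at 10.7, 9.27 and 17.8 TPM in UVB WT rats, and fell from 21.3 ± 3.36 to 13.8 ± 2.06 TPM (SD) in P1.hMR. Its log2 fold changes were -0.82 (limma adjusted p = 0.00491) and -0.59 (limma adjusted p = 0.00535).

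Of 21 listed partners of the sheath (enzymes, adhesion proteins and transcription factors), 17 were in the table and all 17 were tested. In each genotype 4 were called lower (Padi3, Dsg4, Dlx3 and Msx2) and 2 higher (Tgm1 and Tgm3), where 3.92% of all genes in WT and 5.05% in P1.hMR were called higher. The median log2 fold change of the 17 was -0.24 in WT and -0.29 in P1.hMR. Dsg4, a desmosomal cadherin of the follicle, changed by -1.06 (adjusted p = 0.00637, and -1.36 without UVB WT rat 3) among WT rats and by -0.53 (adjusted p = 0.0471) with the transgene. Tgm3, a transglutaminase that cross-links trichohyalin in the sheath and is also made in the epidermis, was at 17.8, 14.5, 21.2 and 20.2 TPM in WT controls and at 44.6, 38.1 and 58.9 TPM in UVB WT rats. Its direction was therefore opposite to that of its substrate Tchh in the same rats, with log2 fold changes of 1.30 (limma adjusted p = 0.000532) in WT and 1.37 (limma adjusted p = 1.68e-05) in P1.hMR. Tgm1, the other transglutaminase called higher, is best known for the cornified envelope of the epidermis and changed by 0.59 and 0.73. Leaving out UVB WT rat 3, 6 partners were called lower in WT, Tgm5 and Prss53 in addition, and 1 higher: Tgm3 was at 1.13 (adjusted p = 0.00349) and Tgm1 missed the call at 0.43 (adjusted p = 0.09). Gata3, a GATA factor needed for the sheath, was not called, at -0.15 (adjusted p = 0.196) without the transgene and -0.33 with it (adjusted p = 0.00102, under the fold threshold). Ovol1 (0.34 and 0.45) and Tgm5 (-0.39 and -0.36) were not called with every rat included. Krt74, Tchhl1, Liph and Cdsn were not analysed here.

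The other compartments of the follicle moved to differing degrees. Of 13 hair shaft keratins tested, 8 were called lower in WT and 6 in P1.hMR with none higher, and their medians were -1.02 and -0.62. Krt82, Krt32 and Krt40 were called in both genotypes, with log2 fold changes of -1.13, -1.08 and -0.98 in WT and -0.80, -0.70 and -0.88 in P1.hMR, and Krt34 was called in P1.hMR (-0.87, adjusted p = 0.0411) and not in WT (-1.07, adjusted p = 0.0591). Leaving out UVB WT rat 3, 12 of the 13 were called in WT, Krt34 included (-1.60, adjusted p = 0.00688), and their median was -1.28. The ratio of the members to the shaft keratins, in summed TPM, was 0.763 to 2.10 in controls and 1.06 to 1.62 after UVB, so the UVB range lay inside the control range. Of 8 hair matrix genes tested, 3 were called lower in WT and 4 in P1.hMR: Lef1, Hoxc13 and Shh in both (-0.81, -0.77 and -0.65 in WT, -0.51, -0.74 and -0.57 in P1.hMR) and Sostdc1 in P1.hMR (-0.65). Shh, the matrix signal, was at 0.36 to 1.17 TPM in the 9 controls and at 0 to 0.36 TPM in the 8 UVB rats, levels too low for a firm size.

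In the companion layer and outer root sheath list, 1 of 7 genes tested was called in each genotype. This was Krt75, the keratin of the companion layer that lies against the inner root sheath, at 146 to 203 TPM in WT controls and 97.8 to 109 TPM in UVB WT rats. Unlike the members, its UVB WT rat 3 (106 TPM) lay between rats 1 and 2 (109 and 97.8 TPM). None of 6 dermal papilla genes was called lower, and Fgf10 was called higher in P1.hMR (0.80, adjusted p = 0.000231). The difference between these lists was not tested.

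**Figure D4:**
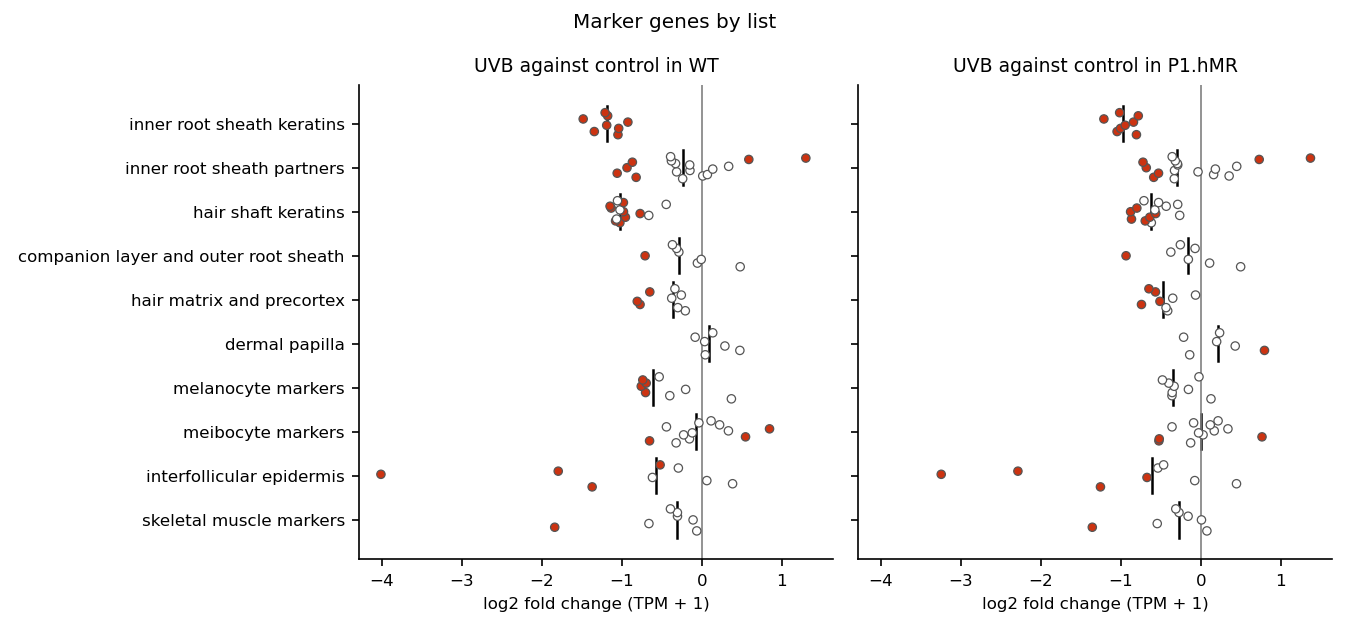
Log2 fold change on the log2(TPM + 1) scale (horizontal axis) of the tested genes of 10 marker lists, with WT on the left and P1.hMR on the right. Each circle is a gene, filled red where called, and black bars are list medians, which are -1.18 and -0.98 for the inner root sheath genes.

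Markers of other tissues in the dissection are given beside these results, and their part in the members' change was not tested. The meibocyte sum was 44028 to 54324 TPM in controls and 39296 to 48079 TPM after UVB. Of 12 meibocyte markers, 1 was called lower in WT (Awat2, -0.65) and 2 in P1.hMR (Awat2, -0.52, and Dgat2, -0.52), while Elovl3 was called higher in both (0.55 and 0.77) and Mc5r in WT (0.85). Neither Elovl3 nor Mc5r was called in WT without UVB WT rat 3. Epidermal markers had 4 of 8 genes called lower in each genotype, led by Krt77 (-4.01 and -3.25), while the epidermal sum overlapped, at 2649 to 3674 TPM in controls and 2521 to 4361 TPM after UVB. The muscle sum was 2072 to 3674 TPM in controls and 1576 to 3221 TPM after UVB, with 1 of 7 genes called in each genotype (Actn3, -1.84 and -1.36). Melanocyte markers, which sit in the hair bulb among other places, had 4 of 8 called lower in WT (Tyr, Slc45a2, Pmel and Mlana, -0.70 to -0.76). In P1.hMR 0 of 8 were called (4 at an unadjusted p under 0.05). There Mitf, Slc45a2 and Tyr missed only the fold threshold (limma adjusted p = 0.00308, 0.0178 and 0.0241). P1.hMR against WT under UVB called 0 of 8, with 5 at an unadjusted p under 0.05. The interaction called 0 of 8 (0 at an unadjusted p under 0.05).

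The neighbours of the members in the keratin clusters did not all follow them. Next to the type I members, in RefSeq order and among genes in the table, Krt24 on one side was at -1.16 in WT, called with an adjusted p of 0.0187, and at -0.48 in P1.hMR (adjusted p = 0.176). On the other side Krt10, a suprabasal keratin of the epidermis, was at 0.06 in WT and -0.08 in P1.hMR and was not called. Beyond it Krt12 was called higher, by 0.99 and 1.72, although without UVB WT rat 3 it was not called in WT (0.77, adjusted p = 0.139). In the type II cluster Krt5, a basal keratin, lies beside Krt71 and was at -0.01 and -0.16, not called, and Krt2 lies beside Krt73 and was called in P1.hMR (-0.67). Farther out in that cluster, Krt75 (-0.71 and -0.94) and Krt82 (-1.13 and -0.80) on the Krt5 side and Krt77 (-4.01 and -3.25) on the Krt2 side were called lower in both genotypes. Among the genes quantified, Tchh lies between Rptn (0.45 and 0.65) and S100a11 (-0.09 and -0.07), neither called in either genotype. Farther out on the Rptn side, Lce1m was called lower in both genotypes (-1.80 and -2.29). Crnn, between Lce1m and Rptn, and S100a10 and Them4 on the other side were not called.

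**Figure D5:**
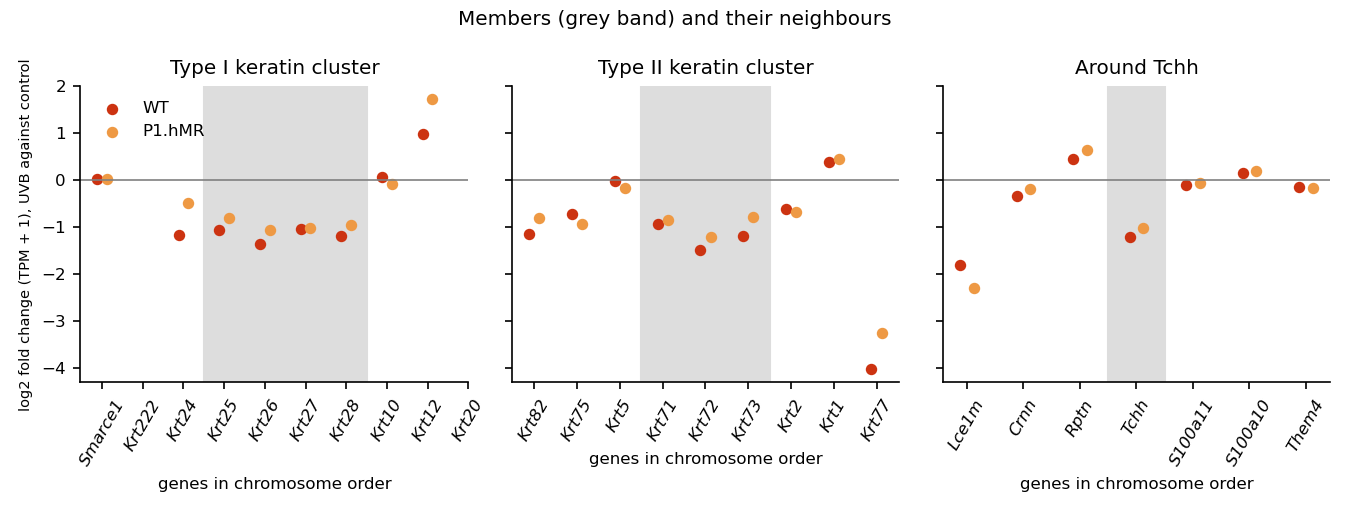
UVB against control log2 fold change on the log2(TPM + 1) scale (vertical axis) of the members, in the grey band, and the 3 genes on each side. Genes are in chromosome order among those in the table (horizontal axis), with WT in red and P1.hMR in orange. Krt222 and Krt20 have no point because they did not pass the filter, and the adjoining Krt10 and Krt5 lie near 0.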

How the data were processed

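Meibomian gland RNA of 17 rats was sequenced by the study, and the authors deposited a table of TPM values for 17251 genes with 2 decimals and decimal commas. According to the methods, reads were aligned to rn7 with STAR and quantified with RSEM; the submitters' notes also name FastQC, Trimmomatic, DRAGEN and Picard. RSEM divides reads that match several genes by estimate, so values of similar keratins could trade reads, which was not tested. These TPM values are not counts, so no count model was used, and depth per library is unknown. Listed genes summed to 804378 to 840817 TPM per rat. Groups came from the titles and treatment labels.

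Values were transformed to log2(TPM + 1), so fold changes of low genes are understated. The 13105 genes that reached 1 TPM in 3 or more rats were fitted with limma 3.58.1 in R 4.3.3, with 4 group means, a variance trend and Benjamini-Hochberg adjustment over all genes tested. Calls required an adjusted p under 0.05 with a log2 fold change of 0.5 or more in size. No fit dropped or imputed a rat, other than those named as leaving a rat out. The script was tested on simulated data.

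The members and gene lists were chosen with earlier results of these data known. Named genes were all members, at most 4 genes per other list (8 for the sheath partners) with the largest mean UVB change, the 6 genes most like the members, their chromosome neighbours and NR3C2. Gata3, Scd, Dgat2, Prss53 and the per-list ranges were named after their values were seen. Promoters are RefSeq sequences of GRCr8, 250 bases upstream. Alternatives were another pseudocount, no filter or a mean of at least 5 TPM, median-of-ratios scaling, the groups compared alone, no trend, a replicate block, other fold thresholds and each rat left out. The numbers shared by groups were checked for pairing. Replicates are separate rats by their titles.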

Additional observations from a re-analysis of the deposited data

Results flagged for a closer look

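The share of the cuticle keratins Krt26, Krt72 and Krt73 in the summed TPM of the 7 keratins was 7.61% in UVB P1.hMR rat 2, below the other 4 rats of its group, which had 9.01% to 9.57%. It was the 1 value standing apart by Dixon's ratio in 36 sets of 4 or 5 rats examined, and chance gives about 1 in 20 sets. Its ratio passed the cutoff only narrowly. UVB WT rats, a group of 3 that was not examined this way, had 7.60% to 8.34%.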

How the results depend on the processing

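The 8 WT calls were the least secure. With only the WT groups in the fit, 4 members were called against 2.91% of all genes, and Krt25, Krt27, Krt71 and Tchh missed the threshold with adjusted p of up to 0.107. Leaving out each rat in turn gave 3 to 8 calls in WT and 7 to 8 in P1.hMR. A minimum log2 fold change of 1 in size left 7 members in WT and 4 in P1.hMR, against 0.832% and 1.1% of all genes called lower. The other settings (pseudocount 0.1, no filter, a mean of at least 5 TPM, median-of-ratios scaling, no trend, no fold threshold) called 8 in each genotype. The share of all genes called lower was 2.81% to 4.81% in WT and 4.27% to 7.39% in P1.hMR under these, but 10.3% and 20.6% with no fold threshold. No setting reversed a UVB difference of a member. In a fit with the replicate block 8 members were called in WT and 8 in P1.hMR, against 3.49% and 5.64% of all genes called lower. In that fit 0 members were called by genotype or interaction, against 0.00763% of all genes in each genotype comparison and 0% for the interaction. As for pairing by replicate number, 4 of 22 same-numbered pairs had correlated deviations over 0.1 (range -0.187 to 0.235). Between Control WT and Control P1.hMR, r was 0.192, 0.042, 0.118 and 0.235 for replicates 1 to 4. Rats with different numbers were not compared, so the check cannot decide whether the numbers pair the rats. The block changed no call. Genotype estimates changed sign when single rats were left out, with 0 calls throughout. Under UVB these were Krt27 (-0.12 to 0.68), Krt71 (-0.052 to 0.68) and Tchh (-0.10 to 0.65). In controls they were Krt25 (-0.071 to 0.20), Krt26 (-0.12 to 0.15), Krt27 (-0.003 to 0.22), Krt72 (-0.053 to 0.19), Krt73 (-0.075 to 0.17) and Tchh (-0.13 to 0.10). For the interaction they were Krt25 (-0.051 to 0.72), Krt26 (-0.007 to 0.68), Krt27 (-0.24 to 0.55), Krt28 (-0.066 to 0.59), Krt71 (-0.19 to 0.54) and Tchh (-0.072 to 0.68). The cause of these dependences was not tested. Depth is unknown, and 3 UVB WT rats limit the precision.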
